A study of Mus musculus with 24 samples.

Results

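BTBR and C57BL6/J macrophages were compared in plain culture media, without lipopolysaccharide (LPS), by the positions of open chromatin in each. The comparison used the libraries labelled media, which were 8 of the 24 libraries of the series, 4 from each strain. Lists of under 5000 peaks were left out. This removed C57BL6/J replicate 6, whose list held 299 peaks, while the shortest list kept held 11349 peaks after overlapping peaks were collapsed. The comparison therefore rested on 4 BTBR lists and 3 C57BL6/J lists.

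Open chromatin was measured by ATAC-seq, in which a transposase cuts accessible DNA and the cut fragments are sequenced. The cells were bone marrow-derived macrophages grown for 7 days in culture from male mice at postnatal day 28, with 50000 cells per reaction and paired reads of 50 bases. The labels name no allele for the C57BL6/J group. The BTBR group was the inbred strain BTBR T+ Itpr3tf/J, whose name carries an allele of Itpr3, an intracellular calcium-release channel. The media cultures received fresh media at each step at which the other cultures received LPS. The other libraries came from the same replicate numbers and are used here only beside the media results. They were cultures given LPS at 100 ng/ml for 24 hours (LPSx1) and cultures given the same after an earlier LPS exposure of 4 hours (LPSx2). The strain label stands for every genetic difference between these inbred lines, so no difference below can be assigned to one allele. The labels call the replicates biological, and each number is taken here as 1 animal.

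Macrophages that develop from marrow depend on lineage factors such as PU.1 and C/EBP proteins, which keep enhancers open in the resting cell. Inflammatory factors such as AP-1, NF-kB and IRF proteins act on that prepared chromatin once a microbial product such as LPS is sensed. Enhancers often lie far from start sites and vary between inbred mouse strains, whereas promoters are mostly open in all of them. BTBR mice are studied as a model of altered social behaviour with unusual immune traits.

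The sequences that follow are the strongest deposited peak window of the first distal regions named in each direction, printed from the GRCm38 (mm10) reference on its plus strand. They are the C57BL/6J sequence at these positions, and the BTBR sequence was not used here. Capitals mark matches, on either strand, to AP-1 (TGACTCA), PU.1 (GAGGAAGT), RUNX (AACCACA), IRF or E-box (CACGTG) letters. A match describes letters only. The first 3 rank high in BTBR media lists and have no peak in the C57BL6/J lists compared.
Near Gad2, chr2:22587740-22587940: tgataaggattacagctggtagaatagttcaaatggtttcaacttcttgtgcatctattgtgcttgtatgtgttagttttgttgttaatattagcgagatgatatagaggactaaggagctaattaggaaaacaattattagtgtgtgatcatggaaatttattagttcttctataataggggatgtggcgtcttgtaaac
In an intron of Sv2c, chr13:96011222-96011422: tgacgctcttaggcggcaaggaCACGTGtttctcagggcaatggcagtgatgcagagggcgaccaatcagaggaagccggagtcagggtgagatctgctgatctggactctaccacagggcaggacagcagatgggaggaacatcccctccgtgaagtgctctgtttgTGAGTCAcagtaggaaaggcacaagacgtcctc
Near Gm10718, chr9:3022392-3022592: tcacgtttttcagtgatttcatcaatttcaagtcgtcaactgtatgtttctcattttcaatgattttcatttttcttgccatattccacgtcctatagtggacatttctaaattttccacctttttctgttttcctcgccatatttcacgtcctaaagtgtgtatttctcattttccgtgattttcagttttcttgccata
The next 3 rank high in C57BL6/J media lists and have no peak in the BTBR lists compared.
Between genes, nearest Dip2c, chr13:9191269-9191469: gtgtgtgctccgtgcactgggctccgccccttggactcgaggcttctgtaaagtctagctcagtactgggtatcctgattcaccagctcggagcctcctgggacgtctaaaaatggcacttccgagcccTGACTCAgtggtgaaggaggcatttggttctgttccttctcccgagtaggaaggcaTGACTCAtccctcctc
In an intron of Gm26561, nearest Myl12b, chr17:70963652-70963852: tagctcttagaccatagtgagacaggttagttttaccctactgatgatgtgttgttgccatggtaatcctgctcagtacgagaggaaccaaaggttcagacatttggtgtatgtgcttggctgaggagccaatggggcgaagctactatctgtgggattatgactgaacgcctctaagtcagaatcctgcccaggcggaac
In an intron of Gm20388, nearest Klhdc4, chr8:121792239-121792439: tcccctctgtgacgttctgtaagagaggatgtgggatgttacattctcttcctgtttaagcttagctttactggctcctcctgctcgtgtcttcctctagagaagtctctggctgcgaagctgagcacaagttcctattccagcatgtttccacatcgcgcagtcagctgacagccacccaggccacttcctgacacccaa
The last 3 belong to genes described below and were chosen after their values were seen.
In an intron of Rgs10, higher in BTBR, chr7:128381202-128381402: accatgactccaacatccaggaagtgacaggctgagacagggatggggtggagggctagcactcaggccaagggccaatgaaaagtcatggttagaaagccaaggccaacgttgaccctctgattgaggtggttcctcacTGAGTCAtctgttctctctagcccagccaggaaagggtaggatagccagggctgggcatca
Upstream of Nlrp1b, higher in C57BL6/J, chr11:71251468-71251668: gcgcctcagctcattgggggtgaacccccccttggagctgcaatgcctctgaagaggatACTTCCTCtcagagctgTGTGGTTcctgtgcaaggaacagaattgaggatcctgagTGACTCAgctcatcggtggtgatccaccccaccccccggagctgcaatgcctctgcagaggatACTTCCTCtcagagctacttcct
At the start of Ifi204, higher in C57BL6/J, chr1:173766961-173767161: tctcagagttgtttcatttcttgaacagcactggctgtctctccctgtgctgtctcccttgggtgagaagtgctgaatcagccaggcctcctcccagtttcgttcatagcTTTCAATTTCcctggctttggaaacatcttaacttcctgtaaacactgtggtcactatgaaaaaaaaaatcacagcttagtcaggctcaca
The Dip2c window holds 2 AP-1 matches, and the Nlrp1b window holds 1 AP-1, 2 PU.1 and 1 RUNX match. Among the distal peaks of all 7 media lists together, counted with repeats between lists, 20.7% held the AP-1 letters, 14.9% the PU.1 letters, 9.94% the RUNX letters, 3.22% the IRF letters and 5.4% the E-box letters. AP-1 matches are thus common at distal peaks of both strains.

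The length of the lists differed among the media libraries. The deposited lists held 63142, 65300, 16047 and 25903 peaks in BTBR replicates 2, 3, 5 and 8. They held 17041, 38751, 299 and 22393 peaks in C57BL6/J replicates 1, 4, 6 and 7. The means were 42598 ± 25306 (SD, n = 4) and 19621 ± 15850 (SD, n = 4), and the strains did not differ beyond this spread (2-sided exact permutation test on log2 peak number, p = 0.2, 70 arrangements). That test does not use the lanes, and in each of the 4 lanes the BTBR list was the longer. Read depth per library is not given in the files. C57BL6/J replicates 1 and 4 and BTBR replicate 3 held most peaks in duplicate. After collapsing and cutting to 11349 peaks, lists from the same lane group (lanes 1 and 2, or lanes 3 and 4) shared more regions on average than lists from different groups. Pairs of lists of the same strain within lanes 1 and 2 or within lanes 3 and 4 shared a mean of 64.1% of their joint regions (3 pairs), and pairs of different strains there shared 58.8% (6 pairs). Pairs with 1 list from each of these lane groups shared 49.3% within a strain and 49.8% between strains (6 pairs each). Each lane held 1 animal of each strain, so lane entered the tests as a term. The labels also give additional PCR cycles, which were 6, 8, 13 and 13 in BTBR media replicates 2, 3, 5 and 8. They were 6, 7, 5 and 13 in C57BL6/J media replicates 1, 4, 6 and 7. Among the kept media lists the cycles were higher in lanes 3 and 4, so lane group and cycle number cannot be told apart.

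Peaks lay near macrophage genes in both strains. Of 28 macrophage identity genes, 25, 23 and 22 had a peak assigned to them in the C57BL6/J lists and 24, 26, 19 and 13 in BTBR replicates 2, 3, 5 and 8. Csf1r, the receptor for the macrophage growth factor, had 4, 4 and 3 peaks in C57BL6/J and 4, 6, 2 and 1 in BTBR. Cd68 had 1 peak in all 7 lists. Spi1 had 1, 2 and 0 peaks in C57BL6/J and 0, 3, 1 and 0 in BTBR, and Adgre1 had 1, 2 and 1 against 2, 3, 1 and 0. Markers of other cells had peaks in part. Of 12 dendritic-cell markers, 7 had a peak in some media list, with 3 to 5 per list in BTBR and 4 in each C57BL6/J list. Of 13 erythroid, mast-cell and progenitor markers, 3 had a peak in some list, with 2 or 3 per list. Of 10 B-cell markers only Blnk had a peak in any media list, at 2 in each of the 7 lists, and Cd79a had none. Col1a1 and Pdgfra among the stromal markers, Ly6g, Mpo and Elane among the neutrophil markers, and Cd3e and Cd4 among the T-cell markers had no peak in the 7 lists. Other members of these lists did: Klrb1c had 2 or 3 peaks in each of the 7 lists. S100a8 had 1 peak, and Cd2 had 1 or 2, in every list except C57BL6/J replicate 7. Kitl had 3, 0, 0 and 1 peaks in BTBR and 0 in C57BL6/J, and Pdgfrb 1, 1, 0 and 0 against 1, 1 and 0. T-cell and natural killer markers with a peak numbered 3 or 4 of 15 in both strains, neutrophil markers 2 or 3 of 13, and stromal markers 0 to 3 of 13 in BTBR and 0 or 1 in C57BL6/J. Because the libraries are bulk, a change in the mix of cells and a change within each cell cannot be told apart.

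Of 20408 regions in the union of the media lists, 12732 were held by at least 3 lists and were tested. Each region's value was its percentile rank within a list, 100 for the strongest peak and 0 where the list held no peak. Between the strains 414 regions differed (limma, adjusted p under 0.05), which is 3.25% of the regions tested. BTBR ranked 162 higher (1.27%) and C57BL6/J ranked 252 higher (1.98%). In 331 of the 414 (2.6% of those tested) no BTBR list overlapped any C57BL6/J list, and over all regions tested the strains did not overlap in 7.59%. The fit took its spread from all 22 kept lists of the 6 strain and treatment groups. Fitted on the 7 media lists alone, the same contrast called 0 regions with lane as a term and 7 without it, although 1622 and 746 had an unadjusted p under 0.05. The split by direction differed between settings: with overlapping peaks not collapsed 103 regions were higher in BTBR and 79 in C57BL6/J, and with no list left out, the list of 299 peaks used whole, 97 and 30. The count also fell to 121 without BTBR replicate 2, 197 without BTBR replicate 3 and 222 without C57BL6/J replicate 1.

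**Figure D1:**
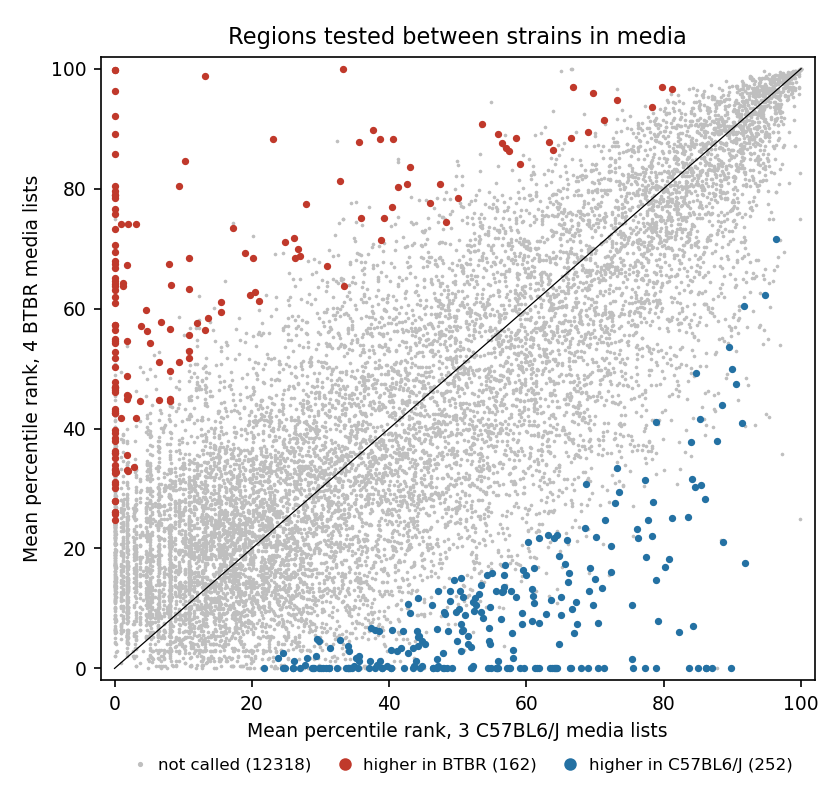
Mean percentile rank of each of the 12732 tested regions in the 3 C57BL6/J media lists (horizontal axis) and the 4 BTBR media lists (vertical axis), 1 point per region, with the line of equal rank. The 162 regions called higher in BTBR and the 252 called higher in C57BL6/J lie off the line, many of them at 0 in one strain, while 12318 were not called.

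The called regions of both directions differed in where they lay. Of the 162 regions higher in BTBR, 24.7% were within 1 kb of a start site and their median distance was 22.6 kb. Of the 252 higher in C57BL6/J, 62.7% were within 1 kb, close to the 58.1% of the regions not called, and their median distance was 0.18 kb. Median GC content was 51.6% in the first set, 60.9% in the second and 59.7% in the regions not called. In media the BTBR lists as a whole also had fewer promoter peaks within each lane (below), and the part of this in the location of the called regions was not tested. Among the distal regions, NF-kB letters were found in 1.64% of the 122 higher in BTBR, in 9.57% of the 94 higher in C57BL6/J and in 5.27% of those not called. AP-1 letters were found in 22.1%, 18.1% and 25%, and PU.1 letters in 19.7%, 16% and 17.2%, in the same order. E-box letters were found in 6.56%, 14.9% and 7.38%. These shares are descriptions of the called sets and carry no test.

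Of the 20 regions with the largest differences, 17 were at 0 in every list of one strain, and the other three are given with their ranks. The region near Gad2 (chr2:22587734-22587940) had percentile ranks of 99.81, 99.81, 99.83 and 99.83 in BTBR replicates 2, 3, 5 and 8 and was at 0 in all 3 C57BL6/J lists. The difference was 99.8 ± 10.9 percentile points (SE, adjusted p = 4.18e-06). Gad2, which encodes a GABA-synthesising enzyme, starts 34.4 kb away. The region itself lies in an exon of the pseudogene Gm13341, and 77.8% of its 50-base windows also occur in the mitochondrial genome of the reference. It was held by all 8 LPS-treated BTBR lists and by none of the 7 LPS-treated C57BL6/J lists.

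Of the 10 leading BTBR regions, 5 lay together at the start of chromosome 9, between 3002408 and 3029878, beside the predicted genes Gm11168, Gm10718 and Gm10717. In all, 6 called regions fell in this stretch, and the 6 were higher in BTBR. The one near Gm10717 (chr9:3029656-3029878) ranked 99.8 in each BTBR list and 0 in each C57BL6/J list (difference 99.7 ± 11 percentile points, adjusted p = 4.18e-06). The one at chr9:3022392-3022618 ranked 80.2, 99.8, 98.4 and 90.2 in BTBR and 0 in C57BL6/J (87.6 ± 17.3, adjusted p = 0.00384). At both, 1 of the 3 full C57BL6/J lists held a weaker peak. The one at chr9:3002891-3003102 was also held by 1 C57BL6/J list, at 39.4 in replicate 1. These 5 regions were 90.7% to 100% soft-masked as repeats, and 50.9% to 100% of their 50-base windows occurred more than once in the 21 chromosomes. Over all called regions, windows found more than once made up most of the region in 10 of 162 higher in BTBR (6.17%), in 0 of 252 higher in C57BL6/J and in 0.15% of those not called. Read placement in these windows was not tested.

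Of the other leading BTBR regions, 4 had no repeated windows and lay 12.3 kb or more from a start site. In an intron of Sv2c, a synaptic vesicle gene, the region chr13:96011221-96011494 ranked 88.2, 95.5, 81.2 and 91.7 in BTBR and 0 in C57BL6/J (89.9 ± 11.3, adjusted p = 3.17e-05). No full C57BL6/J list, before cutting to equal length, held a peak there. In an intron of Rgs10, which limits G-protein signalling in macrophages and microglia, chr7:128381126-128381402 ranked 96.5, 92.7, 69.7 and 59.2 in BTBR and 0 in C57BL6/J (85.3 ± 14.4, adjusted p = 0.000871). Here 2 of the 3 full C57BL6/J lists did hold a weaker peak. The difference at Rgs10 was 30 percentile points in LPSx1 (adjusted p = 0.423) and 30.5 in LPSx2 (adjusted p = 0.511). A region in a UTR of the spliceosome gene Txnl4a, nearest the start of Hsbp1l1, ranked 91.1, 96, 56.2 and 78.7 in BTBR and 0 in C57BL6/J (84.9 ± 12, adjusted p = 0.000111). A region in an intron of 1700025G04Rik (chr1:151953623-151953904) ranked 91.1, 84.9, 66.2 and 60.8 in BTBR and 0 in C57BL6/J (81.1 ± 15.6, adjusted p = 0.00317). Lanes 1 and 2 gave the higher BTBR ranks at Rgs10, Txnl4a and 1700025G04Rik, and no C57BL6/J list overlapped them.

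**Figure D2:**
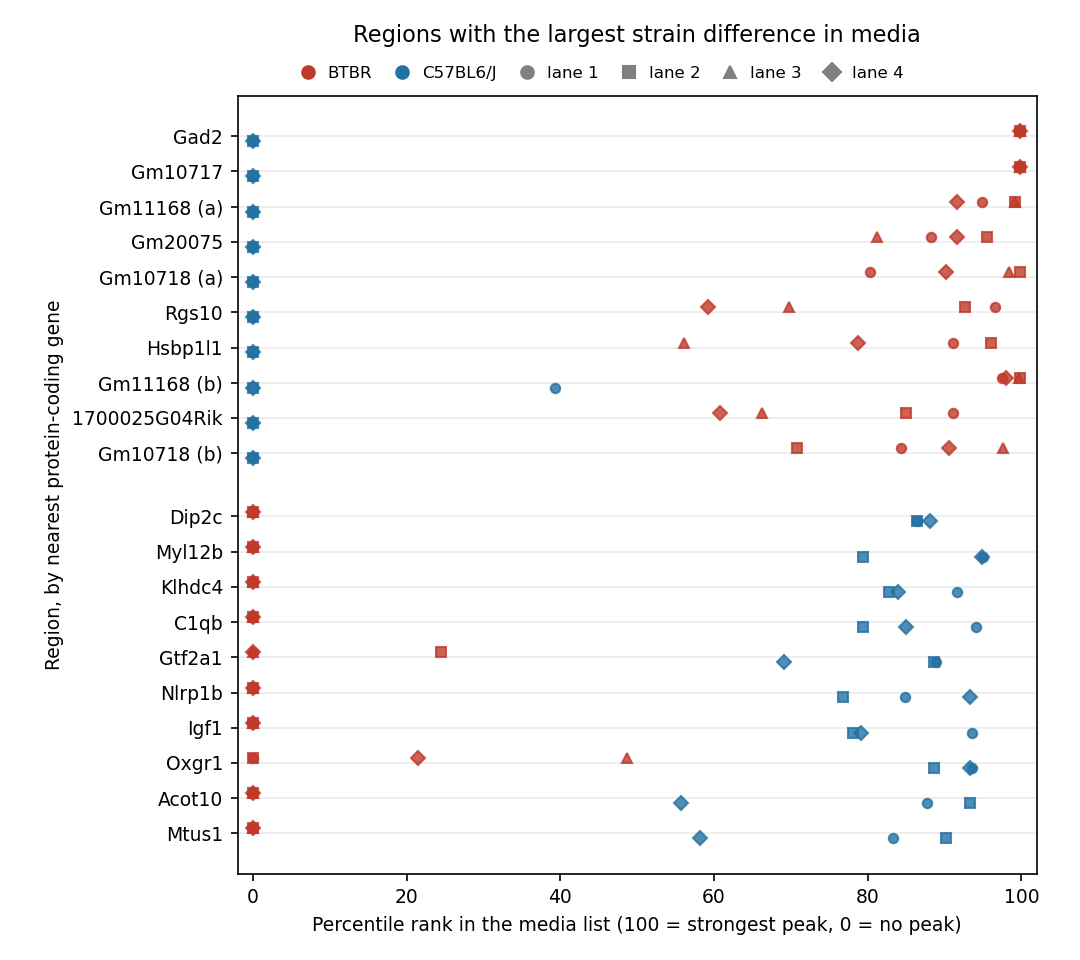
Percentile rank (horizontal axis) of the 10 regions with the largest difference in each direction (rows, by nearest protein-coding gene) in the 4 BTBR and 3 C57BL6/J media lists, 1 point per list with the shape giving the lane. The upper 10 rank high in BTBR and at 0 in C57BL6/J except 39.4 in 1 list at Gm11168, and the lower 10 rank high in C57BL6/J with ranks up to 48.6 in BTBR at Oxgr1 and 24.4 at Gtf2a1.

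Among the regions higher in C57BL6/J, the largest difference was at chr13:9191269-9191525, between genes and 85.1 kb from the start of Dip2c. It ranked 86.4, 86.4 and 88.1 in C57BL6/J replicates 1, 4 and 7 and 0 in the 4 BTBR lists (-86.9 ± 11.6 percentile points, BTBR minus C57BL6/J, adjusted p = 6.68e-05). Its difference was as large with LPS, at -96.6 in LPSx1 (adjusted p = 2.1e-06) and -96.2 in LPSx2 (adjusted p = 1.62e-05). In the full lists 3 of 4 BTBR lists held a peak there, so it was weak in BTBR rather than undetected. A region in an intron of the lincRNA Gm26561 ranked 95, 79.4 and 94.8 in C57BL6/J and 0 in BTBR (-86.7 ± 13.6, adjusted p = 0.000386). Its nearest protein-coding start, 14.8 kb away, is that of Myl12b, a myosin light chain gene. Of this region's 50-base windows 17.5% occurred more than once in the 21 chromosomes, and copies in unplaced or unassembled sequence were not counted. Read placement at this region was not tested. A region near Klhdc4 ranked 91.7, 82.8 and 83.9 against 0 (-86 ± 12.6, adjusted p = 0.000158). Both were held by 2 of 4 full BTBR lists.

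Complement and growth factor genes were also among the leading C57BL6/J regions. The promoter region of C1qb, which encodes a chain of the complement protein C1q made by macrophages (chr4:136886148-136886371, 0.07 kb from the start), ranked 94.1, 79.4 and 85 in C57BL6/J and 0 in the 4 BTBR lists (-85.8 ± 9.54, adjusted p = 4.18e-06). Before cutting to equal length, 2 of the 4 BTBR media lists held a weaker peak there. In LPSx1 the difference was -6.62 percentile points and in LPSx2 it was 0.42. The strain difference itself differed from media with limma adjusted p = 0.0079 and 0.00408. No LPSx2 list of either strain held the region, and in LPSx1 it was held by 2 of 4 C57BL6/J lists and 0 of 4 BTBR lists. The neighbouring C1qc gene had 1 peak in all 7 media lists, and C1qa had 1 in each C57BL6/J list and 1, 1, 0 and 0 in BTBR. A region 162 kb from Igf1, which encodes insulin-like growth factor 1, ranked 93.6, 78.1 and 79.1 in C57BL6/J and 0 in BTBR (-82.1 ± 11.8, adjusted p = 0.00012). An intronic region of Mtus1 ranked 83.2, 90.2 and 58.2 against 0 (-78 ± 10.1, adjusted p = 4.34e-05). At the promoter of Gtf2a1, a subunit of the general transcription factor TFIIA, C57BL6/J ranked 88.9, 88.7 and 69.1 and BTBR 0, 24.4, 0 and 0 (-84.6 ± 16.3, adjusted p = 0.00318). The region nearest Oxgr1 ranked 93.6, 88.7 and 93.2 in C57BL6/J and 0, 0, 48.6 and 21.5 in BTBR (-81.6 ± 13.7). The region nearest Acot10 differed by -80.5 ± 14.5. It was 74.5% soft-masked as repeats, and 19.3% of its 50-base windows occurred more than once. Of the full BTBR lists, 1 held a peak at Igf1, 3 at Mtus1, 2 at Gtf2a1, 4 at Oxgr1 and 0 at Acot10.

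The inflammasome gene Nlrp1b differed by region and had the smallest adjusted p by peak number. It encodes a sensor that activates caspase-1, is triggered by anthrax lethal factor and is known to vary between inbred mouse strains. The region chr11:71251377-71251668, in an intron of the pseudogene Nlrp1c-ps and 20.8 kb from the Nlrp1b start, ranked 84.9, 76.8 and 93.2 in C57BL6/J and 0 in the 4 BTBR lists (-84.4 ± 11.9, adjusted p = 0.000111). The region beside the Nlrp1b start itself, chr11:71230778-71231018, ranked 86.4, 28.3 and 57 against 0 (-57 ± 13.1, adjusted p = 0.0135). Both were absent from all 4 full BTBR lists and from the 8 LPS-treated BTBR lists, and present in all 7 LPS-treated C57BL6/J lists. By gene, Nlrp1b (chr11:71153102-71230733) had 3, 3 and 2 peaks in C57BL6/J and 0 in each BTBR list, a difference of -2.67 ± 0.218 peaks (adjusted p = 2.97e-06). The paralog Nlrp1a had 1 peak in C57BL6/J replicate 1 and none in the other 6 lists. In each of these regions 11.5% of the 50-base windows occurred more than once, and read placement there was not tested. Among 19 regions at 18 inflammasome genes 3 were called (15.8%, beside 3.25% over all regions tested), with the third at Nek7. Of 10 inflammasome genes tested by peak number, Nlrp1b was the 1 called.

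Ifi204, an interferon-inducible sensor of nucleic acids in the p200 cluster, also had its promoter peak in C57BL6/J alone among the lists compared. The region chr1:173766904-173767161 ranked 83.2, 87.2 and 40.6 in C57BL6/J and 0 in BTBR (-70.1 ± 12.4, adjusted p = 0.0014). The difference was -63.2 in LPSx1 (adjusted p = 0.00196) and -65.5 in LPSx2 (adjusted p = 0.00505), and 1 full BTBR list held a weaker peak. By peak number Ifi204 had 1 peak in each C57BL6/J list and 0 in each BTBR list, without passing the test over all genes (-0.97 ± 0.257, adjusted p = 0.16). Of 9 regions tested at p200 genes, which are close copies of each other, this was the 1 called (11.1%). Only 6 of the 15 p200 genes listed, 13 of which are in the annotation, had a peak assigned in any media list.

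Over the LPS-sensing, AP-1, IRF and STAT, NF-kB and chemokine lists, 5 regions were called, each lower in BTBR. By list the share called ran from 0% to 7.69%, on both sides of the 3.25% over all regions tested. The 5 calls are therefore not read as a result about these lists. The cytokine, inflammasome and lipid lists, given apart from these, had calls in both directions. At LPS-sensing genes 2 of 26 regions were called (7.69%). Map3k7, which encodes the kinase TAK1, had a promoter region at 71.1, 28.3 and 64.1 in C57BL6/J and 0, 0, 0 and 18.4 in BTBR (-54.1 ± 15.1, adjusted p = 0.0426). Tab1, which encodes a partner of TAK1, had a promoter region at 45.5, 0 and 42.4 in C57BL6/J and 0, 0, 0 and 8.31 in BTBR (-27 ± 7.51, adjusted p = 0.0425), where the strains overlapped. At AP-1 factor genes 2 of 39 regions were called (5.13%). Fosl2 ranked 64.4, 32.4 and 44.1 against 0 in BTBR (-45.5 ± 12.3, adjusted p = 0.0374), and Fosb 32.4, 61.9 and 58.2 against 0, 1.79, 12 and 11.9 (-45.3 ± 9.45, adjusted p = 0.0065). In the full lists 2 BTBR lists held a weaker peak at the Fosl2 region. At IRF and STAT genes 1 of 28 regions was called (3.57%), in an intron of Irf2 (-43.8 ± 8.76, adjusted p = 0.00436). Most alternatives ended the calls at Map3k7 (called in 7 of 21), Tab1 (7 of 22) and Fosl2 (8 of 21). None of 31 regions at NF-kB subunits and inhibitors and none of 20 at chemokine genes were called. The median difference over the regions of a list was -8.5 percentile points for AP-1 factors, -4.78 for the NF-kB list and -0.17 for LPS sensing, beside 0.41 over all regions tested.

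Cytokine and lipid genes had called regions in both directions. Of 14 regions at cytokine genes 2 were called (14.3%, beside 3.25% over all regions tested). Il16, a chemoattractant for CD4+ cells, ranked 67.2, 45.9, 29.4 and 24.6 in BTBR and 0, 9.18 and 0 in C57BL6/J (41.2 ± 11.7, adjusted p = 0.0473). The promoter of Tgfb1, a cytokine that restrains inflammation, ranked 0, 0, 39.5 and 11.9 in BTBR and 39.4, 43.3 and 68.1 in C57BL6/J (-40.9 ± 10.7, adjusted p = 0.0306), with overlapping ranks. Nek7, a kinase needed by the NLRP3 inflammasome, ranked 75.1, 74.2, 71.3 and 54.4 in BTBR and 15.4, 46.4 and 19.1 in C57BL6/J (40.5 ± 11, adjusted p = 0.0369). Of 34 regions at cholesterol and lipid genes 2 were called (5.88%). An intronic region of Elovl5, a fatty acid elongase, ranked 78.9, 83.9, 39.5 and 56.1 in BTBR and 0 in C57BL6/J (67.8 ± 14.8, adjusted p = 0.00948). In the full lists 2 C57BL6/J lists held a weaker peak there. A region in a UTR of Fasn, the fatty acid synthase gene, ranked 0, 0, 29.4 and 24.6 in BTBR and 39.4, 70.1 and 60.6 in C57BL6/J (-45.8 ± 9.57, adjusted p = 0.00663). Among the 59 regions at macrophage identity genes 1 was called (1.69%), near Lgals3, which encodes galectin-3 (-50.3 ± 9.68, adjusted p = 0.00318). Of 8 regions at erythroid, mast-cell and progenitor markers 1 was called (12.5%), in a coding exon of Klf1 (-21.7 ± 6.07, adjusted p = 0.0445). Most alternatives ended the calls at Il16 (called in 3 of 22), Klf1 (6 of 21), Tgfb1 (8 of 22) and Nek7 (9 of 22).

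No region was called at the other lists. They were interferon-stimulated genes (9 regions tested), alternative activation (20), antigen presentation (12), Fc and C-type lectin receptors (24), glycolysis and mitochondria (38), lysosome and autophagy (46), housekeeping (25), and the neutrophil (3), dendritic-cell (7), B-cell (2), T-cell and natural killer (4) and stromal (3) markers. The 4 genes with variants linked to BTBR mice gave 2 tested regions, neither called. Itpr3 (chr17:27057304-27122223) had 0, 0, 1 and 1 peaks in BTBR and 0 in the 3 C57BL6/J lists. Disc1 had 1, 1, 0 and 0 peaks in BTBR and 0, 1 and 0 in C57BL6/J. Kmo had 2 peaks in BTBR replicate 2 and 0 in the other 6 lists, and Draxin had none. By peak number Itpr3, Disc1 and Kmo were not tested.

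By number of peaks per gene, 9 of 6786 genes differed (0.133%), 4 with more peaks in BTBR (0.0589%) and 5 with more in C57BL6/J (0.0737%). At an unadjusted p under 0.05 there were 564. In 1.55% of the genes tested the strains did not overlap. When 1 replicate was left out, the number called ranged from 2 without C57BL6/J replicate 4 to 33 without C57BL6/J replicate 7, and it reached 264 in lanes 3 and 4 alone. Of the 9, Soga1 was called in 20 of 22 alternatives and Nlrp1b in 20 of 23, but Dhx34 in 9 of 21, Synpr in 4 of 22, and Atg10, Hmbox1 and Ftl1 each in 4 of 23. Atg10, an enzyme of autophagosome formation, had 3 peaks in each BTBR list and 1 in each C57BL6/J list (2.02 ± 0.391 peaks, adjusted p = 0.0495). Slc25a37, which encodes the mitochondrial iron importer mitoferrin 1, and Hsbp1l1 each had 1 peak in every BTBR list and 0 in the C57BL6/J lists (1 ± 0.157, adjusted p = 0.00996). Both met the mean of 0.5 peaks over the 22 kept lists only through the BTBR lists, which were more numerous. The reverse pattern, 1 peak in every C57BL6/J list alone, fell below that mean and was not tested. Their p-values and the split by direction therefore rest in part on that filter. The Hsbp1l1 peak is the region in a UTR of Txnl4a described above. Hmbox1 had 3, 4, 1 and 1 peaks in BTBR and 0 in C57BL6/J (2.51 ± 0.45, adjusted p = 0.0401). In the other direction Soga1 had 3, 3 and 4 peaks in C57BL6/J and 0, 0, 0 and 1 in BTBR (-3.01 ± 0.376, adjusted p = 0.00101). Ftl1, the ferritin light chain gene, had 5, 4 and 4 against 2, 3, 1 and 2 (-2.06 ± 0.384, adjusted p = 0.0495). Dhx34, an RNA helicase of nonsense-mediated decay, had 2 in each C57BL6/J list against 0, 0, 1 and 0 (-1.82 ± 0.348, adjusted p = 0.0495), and Synpr had 2 against 1 in every list (-1 ± 0.191, adjusted p = 0.0495).

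**Figure D3:**
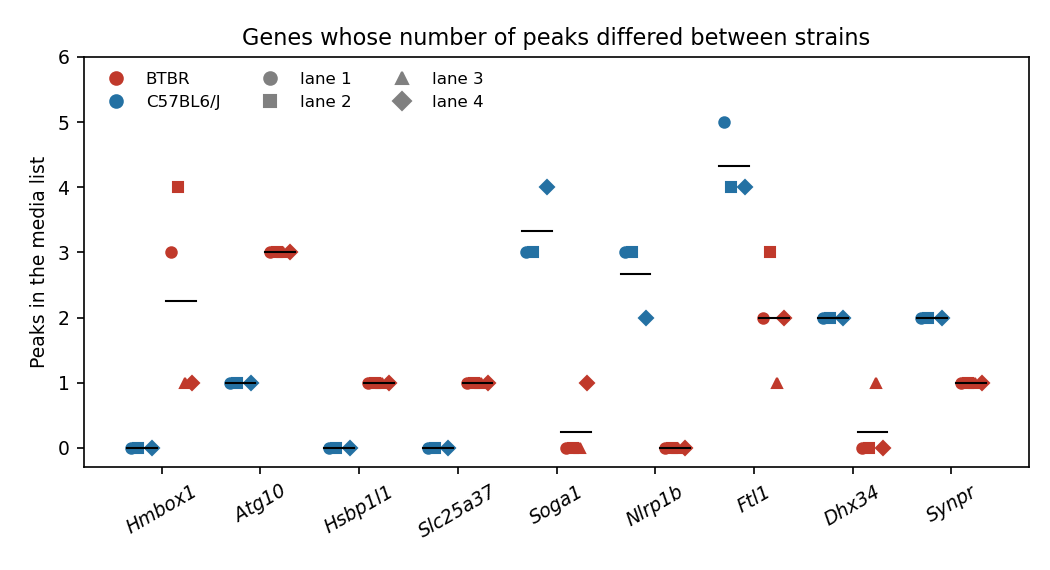
Number of peaks assigned to each of the 9 called genes (vertical axis) in the 3 C57BL6/J and 4 BTBR media lists, 1 point per list with the shape giving the lane and the black lines the means. Nlrp1b has 2 or 3 peaks in C57BL6/J and 0 in BTBR, and Atg10 has 1 in C57BL6/J and 3 in BTBR.

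The genes next in size, whose strains did not overlap but which did not pass, were H60b, Gm10718, Elovl5, Filip1, Bag3 and Gm10717 with more peaks in BTBR and Brd2, Zc3h4, Stk32c, Mtus1 and Nr4a1 with more in C57BL6/J. H60b, a ligand of the natural killer receptor NKG2D, had 5, 4, 3 and 2 peaks in BTBR and 1, 1 and 0 in C57BL6/J (3.12 ± 0.659, adjusted p = 0.0692). Brd2, which encodes a bromodomain reader of acetylated histones, had 0, 0, 3 and 3 in BTBR and 4, 5 and 5 in C57BL6/J (-3.28 ± 0.872, adjusted p = 0.167). Nr4a1, a nuclear receptor of monocytes and macrophages, had 1, 1, 2 and 1 in BTBR and 3 in each C57BL6/J list (-1.79 ± 0.446, adjusted p = 0.131). At Brd2 the BTBR peaks were those of lanes 3 and 4.

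The strictest description counts regions held by every list of one strain and by no list of the other. BTBR held 118 such regions (0.578% of 20408) and C57BL6/J held 127 (0.622%). Of the 118, 21 (17.8%) were within 1 kb of a start site, and of the 127, 43 (33.9%) were. The share was 49.4% over all 20408 regions and 70.6% over the 4646 regions held by all 7 lists. By nearest gene, 2 such regions each fell at Atg10, Gm10718 and Nrip1 in BTBR and at Hmga2, Nlrp1b, Pla2g4a and Soga1 in C57BL6/J. In 36 of the 118 no full C57BL6/J list held a peak, and in 14 of the 127 no full BTBR list did, while the full BTBR lists were longer on average. Over all 20408 regions, 1137 were in no full C57BL6/J list and 275 in no full BTBR list. C57BL6/J replicate 6, left out for its 299 peaks, held 3 of the 127 and 1 of the 118.

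The LPS-treated lists, which took no part in choosing these regions, differed between strains at these regions. The 8 LPS-treated BTBR lists held 61.9% to 68.6% of the 118 BTBR regions and the 7 LPS-treated C57BL6/J lists held 28% to 38.1%. Of the 127 C57BL6/J regions, the C57BL6/J lists with LPS held 40.9% to 56.7% and the BTBR lists 6.3% to 15%. The strains did not overlap in either set. The lists share animals with the media lists, so they are not independent animals. Of the 118 regions 13 were held by all 8 BTBR and none of the 7 C57BL6/J lists with LPS, and of the 127 regions 24 were held by all 7 and none of the 8. Over all 20408 regions of the media lists, 24 had the first pattern and 44 the second.

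**Figure D4:**
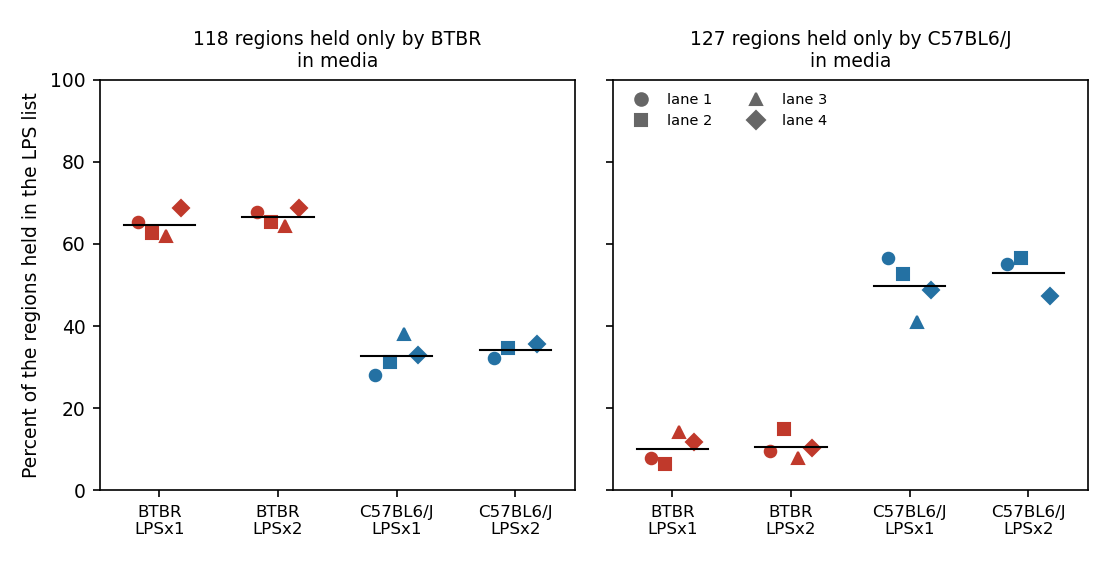
Percent of the 118 regions held only by BTBR in media (left) and of the 127 held only by C57BL6/J in media (right) that each LPS-treated list held (vertical axis), 1 point per list with the shape giving the lane and the lines the means. BTBR lists lie at 61.9% or above on the left and at 15% or below on the right.

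Most of the 414 called regions were not called again with LPS. Of the 162 higher in BTBR, 25 were also called higher in BTBR in LPSx1 and 20 in LPSx2, beside 0.95% and 0.762% of all regions tested being called between strains there. Of the 252 higher in C57BL6/J, 29 were called in LPSx1 and 29 in LPSx2. None was called in the opposite direction. The median difference of the 162 regions was 45.8 percentile points in media, 4.25 in LPSx1 and 4.04 in LPSx2. A test of the change itself called few: the strain difference differed between media and LPSx1 in 11 regions of 12732 (0.0864%) and between media and LPSx2 in 10 (0.0785%). Among the 94 distal regions higher in C57BL6/J 22 were called again in LPSx1, and among the 158 near start sites 7 were. Of the 20 named regions, 8 of the 10 in BTBR and 5 of the 10 in C57BL6/J were called in the same direction in both LPS contrasts. The 8 included the Gad2 region, largely shared with the mitochondrial genome, and the 5 repeat-masked regions at the start of chromosome 9. The other BTBR regions called in both were those in Sv2c and Txnl4a, while those in Rgs10 and 1700025G04Rik were not. The called regions were chosen by their difference in media, so its smaller size with LPS carries no test beyond these.

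The share of peaks near start sites did not differ between strains over all lanes but was lower in BTBR within each lane that had both. Within 1 kb of a start site lay 41.5%, 46.1%, 68.1% and 67.2% of peaks in BTBR replicates 2, 3, 5 and 8 and 52.2%, 56.3% and 70.3% in C57BL6/J replicates 1, 4 and 7. The means were 55.7% ± 13.9 (SD, n = 4) and 59.6% ± 9.54 (SD, n = 3), with a 2-sided exact permutation p of 0.714 over 35 arrangements, of which the smallest possible p is 0.0286. Within lanes the difference (BTBR minus C57BL6/J) was -10.7 percentage points in lane 1, -10.2 in lane 2 and -3.17 in lane 4. Mean GC content of peaks followed the same order, at 54.6% to 62.6% in BTBR and 57.3% to 63.4% in C57BL6/J, and differed by -2.7, -2.06 and -1.07 percentage points (BTBR minus C57BL6/J) in lanes 1, 2 and 4. Lane 3 held 1 BTBR list and no kept C57BL6/J list.

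**Figure D5:**
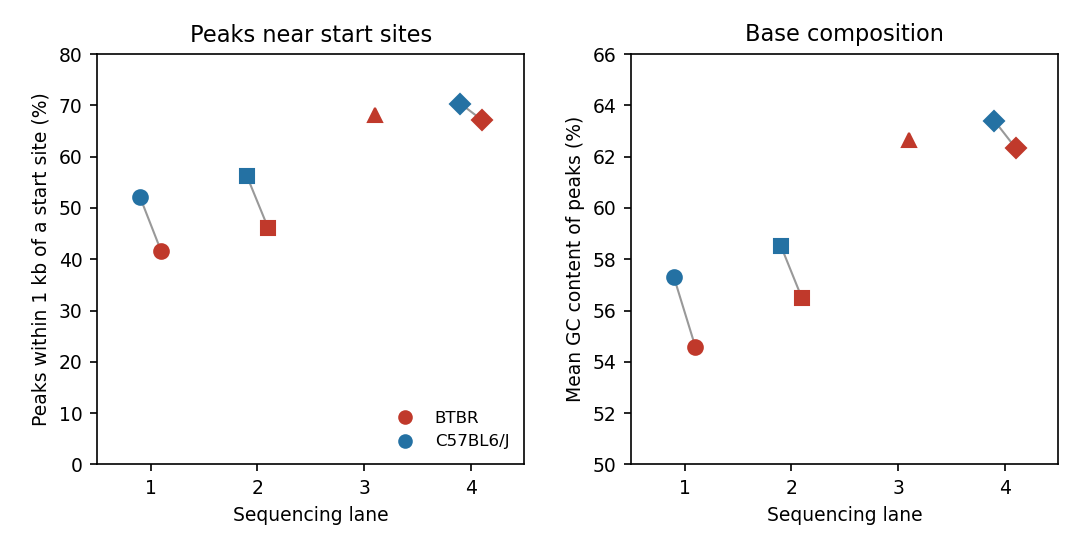
Percent of the 11349 peaks within 1 kb of a start site (left) and mean GC content of the peaks (right) for each media list by sequencing lane, BTBR and C57BL6/J of 1 lane joined by a line. Lists of lanes 3 and 4 lie above those of lanes 1 and 2 on the left, and BTBR lies below C57BL6/J in each lane with both.

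Motif letters at distal peaks did not differ between strains beyond their spread. AP-1 letters were found in 20.9%, 20.1%, 20.4% and 22.2% of distal peaks in BTBR and in 19.7%, 20.8% and 21.5% in C57BL6/J, a mean difference of 0.2 percentage points (exact permutation p = 0.714). PU.1 letters were found in 16%, 15.5%, 13.6% and 14.8% in BTBR and in 14.6%, 14.7% and 14% in C57BL6/J, a difference of 0.52 (exact permutation p = 0.429). NF-kB letters were found in 3.1%, 2.94%, 4.03% and 4.4% in BTBR and in 3.83%, 3.83% and 5.32% in C57BL6/J, a difference of -0.71 (exact permutation p = 0.286). Within lanes 1, 2 and 4 the NF-kB difference was -0.73, -0.89 and -0.92, and the PU.1 difference 1.43, 0.72 and 0.77. All 11 motifs had an adjusted p of 1, and with 35 arrangements a single motif could not pass adjustment.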

How the data were processed

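The authors deposited one peak list per library, with a score per peak whose scale is not stated, so the score served only to rank peaks within a list. Per the submitters' processing notes, Trimmomatic 0.38, SAMtools 1.8, Picard 2.18.4, HOMER and bedtools were used, on mm10; the aligner is not given in the sources used here. The mm10 genome is that of C57BL/6J, so BTBR reads were placed on another strain's sequence; the effect of this was not tested. Overlapping peaks within a list were collapsed to the best score, lists under 5000 peaks were left out, and the rest were cut to the 11349 best. Read depth is not known; list length and the number of lists limit the precision.

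Peaks of the lists were merged into regions (overlap of 1 bp or more). Percentile ranks of regions held by at least 3 media lists, and peak numbers of genes within 100 kb (mean of at least 0.5), were fitted with limma 3.58.1 (statmod 1.5.0, R 4.3.3) over all 22 kept lists, with group and lane as terms and the animal as a random block, since the labels give the media and LPS libraries of an animal 1 number. Benjamini-Hochberg adjustment ran over all regions or genes, at 0.05. The fits were also run on simulated data with known differences, equally many in each direction, and no lane or animal effect. The region fit called 32 higher and 13 lower in BTBR, and the gene fit 84 and 9, each fewer than were put in. Shares per list were compared with 2-sided exact permutation tests. Where nothing but the word biological says that the samples are separate animals, p-values measure the spread between these samples. Genes came from the GENCODE vM21 basic annotation and sequences from the GRCm38 genome. Besides the motifs spelled in the results, the letters searched on both strands were C/EBP (TTGCNNAA), STAT (TTCCNGGAA), CRE (TGACGTCA), SP/KLF (GGGGCGGGG), and, by name alone, IRF, CTCF and NF-kB.

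The members and lists were chosen with earlier results of these data known. Named regions were the 10 with the largest difference in each direction among those called whose strains did not overlap. Named genes were those called, filled with the largest differences among genes whose strains did not overlap. List members past either test were also named. Alternatives covered list length, collapsing, overlap, tie order, filters, lane and block terms, media libraries alone, lanes apart and leaving out each replicate.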

Additional observations from a re-analysis of the deposited data

Results flagged for a closer look

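Among the 54 groups of 4 samples examined, 10 held 1 sample far from the other 3. The usual rate of about 1 in 20 such groups holds for continuous values, not for small counts or ranks with many zeros. Where 3 values are equal, a different remaining value is always flagged, whatever its size. The 10 can therefore not be set against that rate. The 10 were BTBR media groups in which the other 3 samples were equal, and the 3 C57BL6/J lists compared were too few for this check. BTBR replicate 3 had a percentile rank of 24.4 at the Gtf2a1 promoter and 16 near Lgals3, where the other 3 were at 0. BTBR replicate 8 had 18.4 at Map3k7 and 8.31 at Tab1, where the other 3 were at 0. By peak number, BTBR replicate 8 had 1 peak at Soga1, and BTBR replicate 5 had 1 at Dhx34, where the others had 0. BTBR replicate 5 had 2 peaks at Nr4a1, where the others had 1, and 3 at Gm10717. BTBR replicate 2 had 4 peaks at Gm10718, and BTBR replicate 8 had 1 at Filip1, each apart from 3 equal values.

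The strain difference changed between media and LPS, by a limma test of the change itself, at 3 named regions. At the C1qb promoter the 3 C57BL6/J media lists ranked 79.4 or above and the 4 BTBR lists were at 0. Before cutting to equal length, 2 of these BTBR lists held a weaker peak. The adjusted p of the change at C1qb was 0.0079 against LPSx1 and 0.00408 against LPSx2. At Gtf2a1 it was 0.0379 against LPSx2, and at Mtus1 0.0271 against LPSx2.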

How the results depend on the processing

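The 414 regions became 218 with the stronger 50% of each list (67 higher in BTBR, 151 in C57BL6/J), 182 with lists as deposited, 127 with no list left out, 192 with no lane covariate, 124 as held or not held, 675 in lanes 1 and 2 alone, and 0 (strain and lane) or 7 (strain alone) with media libraries only. Leaving out 1 replicate gave 121 to 449. Of 762 alternative values for the named regions 528 kept their call, 234 lost it and 0 reversed; of 469 for the named genes 111 lost a call, 31 gained one and 0 reversed. The 9 genes became 2 with no list left out, 2 without the lists that hold most peaks in duplicate, 171 with media libraries only (strain and lane), 50 with no filter, 153 in lanes 1 and 2 alone and 264 in lanes 3 and 4 alone. Leaving out 1 replicate gave 2 to 33. The 245 regions held by one strain became 124 with the stronger 50% and 120 with no list left out (117 in BTBR, 3 in C57BL6/J), and 312 to 475 when 1 replicate was left out.

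With no replicate block for the animal, 385 regions (152 and 233) and 4 genes were called. The strains share no replicate numbers; lane, which held 1 animal of each strain, pairs them and is a term of the fit. The difference in promoter share turned to 8.11 percentage points with no list left out, and ran from -7.99 to 1.51 when 1 replicate was left out, above 0 without BTBR replicate 2 (0.87) and without C57BL6/J replicate 7 (1.51). The AP-1 difference ran from -0.29 to 0.61 when 1 replicate was left out, and turned to -0.45 with lists as deposited, -0.29 without C57BL6/J replicate 1 and -0.23 without BTBR replicate 8. The splits by lane and the other tie order were chosen after seeing the data. The cause of these changes was not tested. List length limits what could be detected: a region at 0 can hold a weaker peak.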

Other observations

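Some further regions, chosen after their values were seen, lay at genes in no list. A region between genes whose nearest start, 136 kb away, is that of Ptprc, which encodes the leukocyte antigen CD45, was open in both strains and ranked 94.8, 88.6, 82.3 and 81.2 in BTBR and 51, 61.9 and 58.2 in C57BL6/J (limma adjusted p = 0.00317). An intronic region of Soga1 ranked 86.4, 64 and 76.2 in C57BL6/J and 0 in the 4 BTBR lists (limma adjusted p = 0.0014). An intronic region of Atg10 ranked 66, 67.3, 36.4 and 73.9 in BTBR and 0 in C57BL6/J (limma adjusted p = 0.00338), and one in a UTR of Wwox ranked 95.8, 61.3, 76.9 and 79.5 against 0 (limma adjusted p = 0.00143). In the full lists 3 BTBR lists held a weaker peak at the Soga1 region and 2 C57BL6/J lists at the Atg10 region. At the Wwox region no full C57BL6/J list did.

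Leaving aside chromosome Y, with 1 of 6 regions called, the highest share of called regions was on chromosome 9, where 37 of 694 regions (5.33%) were called and 23 were higher in BTBR. Of these, 6 lay in the stretch chr9:3002408-3029878 described above, each higher in BTBR. The share on chromosome 14 was 4.58%. On chromosome 7, 41 were called (4.59%), 31 of them higher in C57BL6/J. Within 100 kb of each other lay 53 called regions in 24 groups, 20 of which went in 1 direction. A group of 3 regions at Ccdc97, Exosc5 and Tgfb1 (chr7:25658944-25706050) was higher in C57BL6/J throughout.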
